A study of Homo sapiens with 2 samples.

Results

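The kinetochore and spindle checkpoint module comprised 53 genes that encode the centromeric nucleosome and its loading factors, the inner and outer kinetochore, the checkpoint, the chromosomal passenger complex, mitotic kinases, cohesion protectors and cytokinesis factors. They were taken by gene symbol from a table of 19927 genes, and all 53 were found. The module was compared between 2 libraries of Huh7, a human liver carcinoma cell line. In 1, cells were harvested after 48 h in medium with homochlorcyclizine dihydrochloride (HD, an antihistamine). The other came from Huh7 cells kept for the same time in medium with DMSO, the solvent control. The labels give no dose, so the dose of HD is not known here. The question was how the mRNA levels of these genes differed after treatment. Each group is 1 library, and the labels do not say how many cultures it came from. No test between the conditions was therefore possible, and every difference is one between these libraries.

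The kinetochore is the protein assembly that ties a chromosome to spindle microtubules. Its inner layer sits on centromeric nucleosomes that carry the histone variant CENP-A, and its outer layer, the KNL1, MIS12 and NDC80 complexes, binds microtubules. Kinetochores without attached microtubules switch on the spindle checkpoint, which holds back CDC20 and the anaphase-promoting complex until all chromosomes are attached. Many of these genes are transcribed mainly in G2 phase and mitosis, and their mRNAs are abundant in dividing cell populations such as hepatoma cultures.

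The HD library held 40791119 counts and the DMSO library 38133894. Levels are given as library-size-normalised counts (CPM) after scaling by TMM, or, where genes are compared with each other, as the authors' FPKM, which also divides by gene length. Ratios are HD over DMSO, computed from CPM. Their 95% intervals are exact (Clopper-Pearson) and cover counting error only. A gene was called higher or lower when it differed at least 2-fold and its interval excluded 1, counting the 12353 genes that averaged 1 CPM or more over both libraries. Log2 ratios, to which the 2-fold limit was applied, include a prior count of 1. All 53 genes passed the filter, with 110 to 5912 counts in the HD library and 423 to 14444 in the DMSO library. The median half-width of their intervals was 1.08-fold and the widest 1.24-fold.

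mRNAs of the module were lower in the HD library almost throughout. Of the 53 genes, 45 (84.9%) were at least 2-fold lower and none was 2-fold higher, where 5.10% of all genes past the filter were called lower and 5.81% higher. The other 8 were CENPC, CENPI, CENPL, CENPT, MIS12, NSL1, PMF1 and BUB3. The median log2 ratio was -1.62, against -0.01 over all genes past the filter. The module took 0.148% of the counts in the HD library and 0.437% in the DMSO library. In 51 of the 53 genes the interval lay below 1, the exceptions being CENPT and PMF1. Ratios of 0.25 or less were found in 6 genes, and 34 genes lay between 0.25 and 0.4. In bulk libraries a smaller share of dividing cells, in mitosis or another phase, and less of these mRNAs per cell cannot be told apart.

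**Figure D1:**
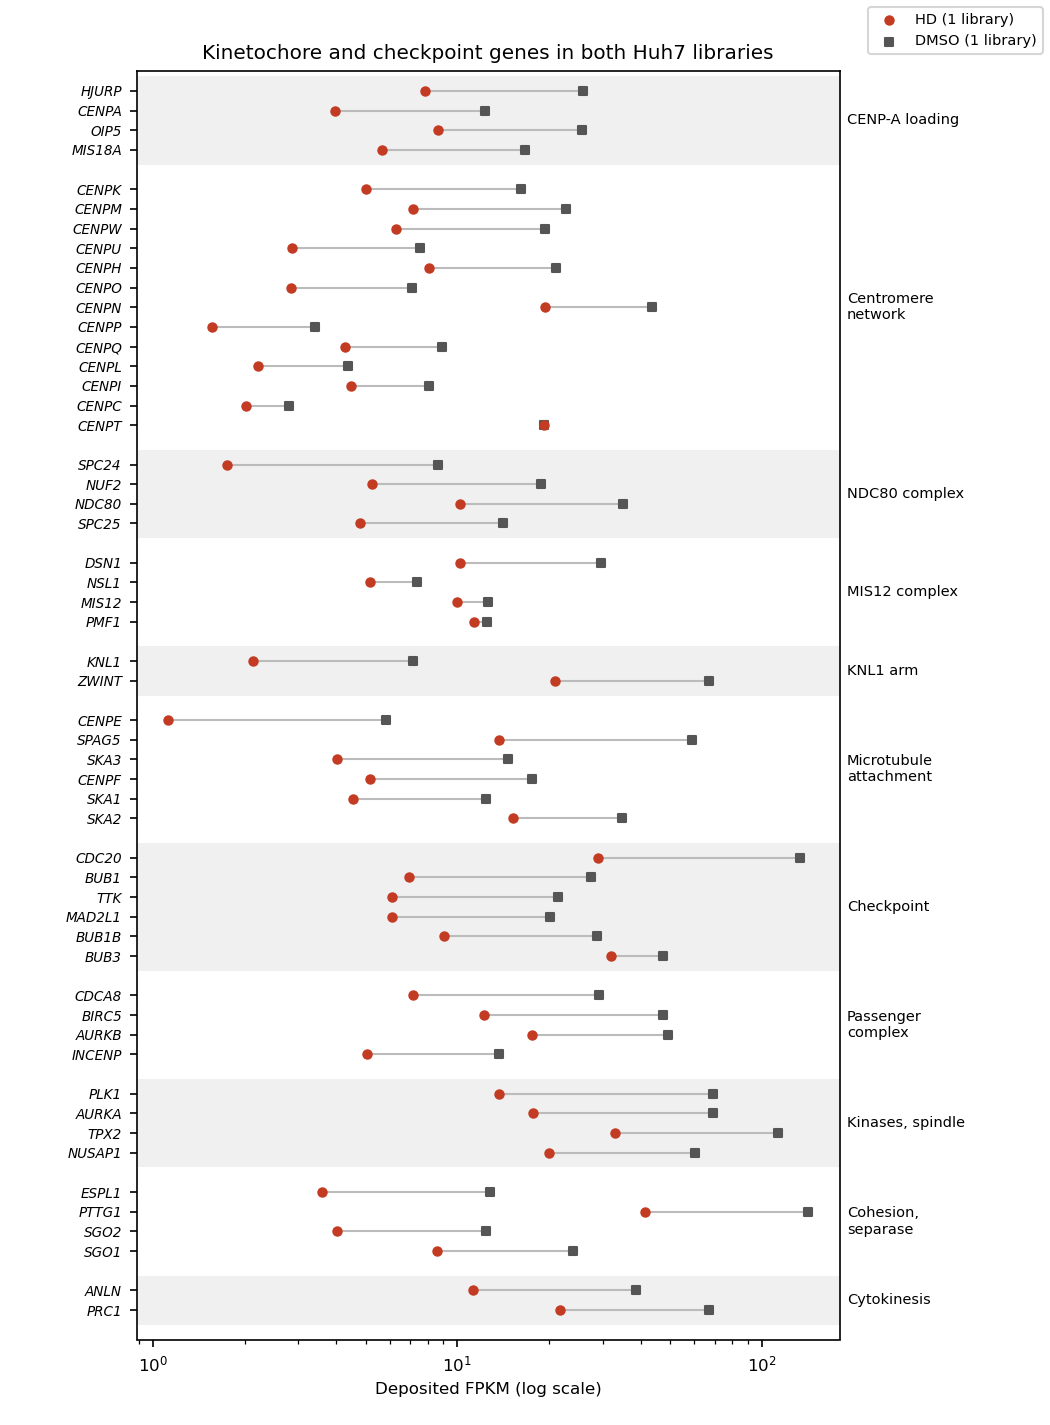
Deposited FPKM of the 53 genes on a log axis, grouped by role, with the HD library as red circles and the DMSO library as grey squares. The circles lie left of the squares, from 1.12 against 5.84 FPKM in CENPE to PMF1 at 11.3 against 12.5 FPKM, except in CENPT, where both are 19.2 FPKM and the symbols coincide.

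The lowest ratios in the module belonged to CENPE, PLK1 and SPC24. CENPE, a plus-end-directed kinesin that moves chromosomes to the spindle equator, was at 9.26 CPM in the HD library and 47.9 CPM in the DMSO library, a ratio of 0.193 (interval 0.173 to 0.216). PLK1, the polo-like kinase that acts from mitotic entry to cytokinesis, was at 29.7 CPM with HD and 149 CPM with DMSO, a ratio of 0.199 (0.187 to 0.212). CDC20, the activator of the anaphase-promoting complex and the target of the checkpoint, was at 47.8 CPM with HD and 219.5 CPM with DMSO, a ratio of 0.218 (0.207 to 0.229). At the other end stood CENPT, an inner kinetochore subunit with a histone fold that recruits the NDC80 complex, at 37.2 CPM with HD and 37.1 CPM with DMSO (ratio 1.00, 0.931 to 1.08). PMF1, a subunit of the MIS12 complex, was at 11.0 CPM with HD and 12.0 CPM with DMSO (ratio 0.912, 0.799 to 1.04). These 5 genes span the range of the module.

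Their promoters are shown because genes of G2 phase and mitosis are known to carry a short element, the cell cycle genes homology region (CHR), often near a CCAAT box that NF-Y binds. The CHR is read by the DREAM repressor complex and by the MYBL2 and FOXM1 activator complexes. Each line gives the 250 bases before the RefSeq start site on GRCh38.p14, 5′ to 3′ on the strand of the gene. Capitals mark the CHR as TTTGAA or TTTAAA, the CCAAT box as CCAAT, and the E2F core as TTCGCGC with its known variants TTGGCGC and, in a further form, TTCCCGC. Each was searched on both strands, and neighbouring or overlapping matches run together in the capitals.
CENPE promoter, chr4:103198344-103198593, minus strand: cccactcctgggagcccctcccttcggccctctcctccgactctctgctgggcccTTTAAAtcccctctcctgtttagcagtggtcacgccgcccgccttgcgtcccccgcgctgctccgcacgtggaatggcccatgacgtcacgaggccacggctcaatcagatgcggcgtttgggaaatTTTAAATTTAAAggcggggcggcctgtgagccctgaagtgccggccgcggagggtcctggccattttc
PLK1 promoter, chr16:23678639-23678888, plus strand: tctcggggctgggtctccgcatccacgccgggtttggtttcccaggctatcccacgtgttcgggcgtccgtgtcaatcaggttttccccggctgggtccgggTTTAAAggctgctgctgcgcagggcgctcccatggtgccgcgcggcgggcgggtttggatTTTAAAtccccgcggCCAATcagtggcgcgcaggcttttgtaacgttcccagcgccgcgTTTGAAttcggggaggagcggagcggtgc
CDC20 promoter, chr1:43358731-43358980, plus strand: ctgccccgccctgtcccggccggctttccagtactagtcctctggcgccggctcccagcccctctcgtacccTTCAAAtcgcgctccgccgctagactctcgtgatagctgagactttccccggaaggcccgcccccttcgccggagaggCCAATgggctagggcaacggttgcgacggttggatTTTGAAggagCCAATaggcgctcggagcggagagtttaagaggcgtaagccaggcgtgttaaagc
PMF1 promoter, chr1:156212757-156213006, plus strand: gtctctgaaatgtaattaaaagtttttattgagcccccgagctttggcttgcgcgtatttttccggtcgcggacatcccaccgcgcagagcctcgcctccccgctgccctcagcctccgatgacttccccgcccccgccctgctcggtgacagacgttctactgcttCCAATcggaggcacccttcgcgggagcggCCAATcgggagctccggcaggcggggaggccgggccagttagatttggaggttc
CENPT promoter, chr16:67847694-67847943, minus strand: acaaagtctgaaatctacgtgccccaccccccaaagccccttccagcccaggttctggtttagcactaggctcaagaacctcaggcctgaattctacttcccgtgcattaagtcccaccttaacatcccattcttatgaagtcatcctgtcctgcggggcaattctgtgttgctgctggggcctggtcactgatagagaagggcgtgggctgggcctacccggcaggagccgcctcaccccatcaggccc
The CENPE window held TTTAAA 3 times and no CCAAT box. In PLK1 the match nearest the start was TTTGAA, from -29 to -24, with a CCAAT box from -73 to -69. For CDC20, TTTGAA lay from -65 to -60 with CCAAT boxes on either side of it, and a second copy lay on the reverse strand further upstream. PMF1 had CCAAT boxes and no CHR, and CENPT had none of the motifs in these bases.

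Across the module, 43 genes had an entry in the RefSeq promoter table, whose windows span 300 bases, 50 of them after the start. AURKA, BIRC5, BUB3, CENPH, CENPL, CENPM, KNL1, MIS18A, TPX2 and TTK were not matched. TTTGAA occurred in 23 of the 43 genes (53.5%), against 14.0% of the 10134 genes past the filter with an entry and 15.2% of all 35116 windows. TTTAAA occurred in 7 (16.3%), against 11.1% of those genes and 12.2% of all windows. A CCAAT box was found in 30 (69.8%), against 43.3% of the genes and 34.6% of all windows, and an E2F core in 13 (30.2%), against 21.6% and 11.0%. CHR and CCAAT occurred together in 17 of the 43 (39.5%), against 9.26% of the genes past the filter and 9.27% of all windows. Either form of the CHR alone occurred in 60.5% of the 43, against 21.8% of the genes past the filter. Whether CHR and CCAAT met more often than their single shares would give was not tested. Counted per window, TTTGAA occurred 27 times in the module. Of these, 16 (59.3%) began within 100 bases upstream of the start, against 29.0% in all windows. Windows of a gene can overlap, and in ZWINT the same stretch was counted more than once. A match is a stretch of letters and was not tested for binding.

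Genes with and without a CHR overlapped in their ratios. Of 26 genes with either form, 25 were at least 2-fold lower, and their median log2 ratio was -1.72. Of 17 without it, 12 were at least 2-fold lower, with a median of -1.39. Among all genes past the filter 5.10% were called lower, and the called share by CHR among them was not computed. The difference between the medians with and without a CHR was not tested. CENPC was the gene with a CHR that was not called, and CENPI, CENPT, MIS12, NSL1 and PMF1 were those without. SPC24 and BUB1, with ratios of 0.202 and 0.254, had neither TTTGAA nor TTTAAA in their windows. Other forms of the CHR were not searched. For the CCAAT box the medians were -1.62 with it and -1.66 without.

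**Figure D2:**
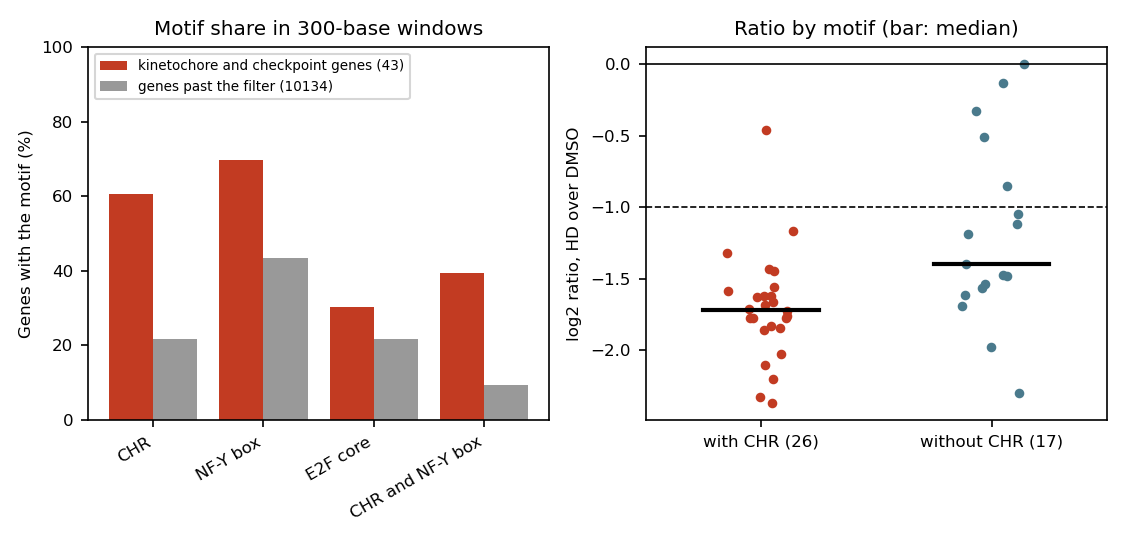
Left, percentage of genes whose 300-base promoter window holds each motif, in the module (red, 43 genes) and in all genes past the filter (grey, 10134 genes), where the NF-Y box is CCAAT. Right, log2 ratio of HD over DMSO for genes with and without a CHR, 1 point a gene, with the median as a bar and 2-fold lower as a dashed line; the median is -1.72 with a CHR and -1.39 without, and the points overlap.

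Genes of the centromeric nucleosome were lower together. CENPA itself was at 5.36 CPM in the HD library and 16.6 CPM in the DMSO library (ratio 0.322, 0.275 to 0.376). HJURP, the chaperone that deposits CENP-A, was at 27.4 CPM with HD and 90.7 CPM with DMSO (0.302, 0.282 to 0.324). The intervals of this histone and its chaperone overlapped. MIS18A and OIP5, the alpha and beta subunits of the MIS18 complex that licenses centromeres for loading, had ratios of 0.340 (0.306 to 0.377) and 0.338 (0.300 to 0.379). OIP5 shares 38.0% of its exon bases with OIP5-AS1 on the opposite strand, and the sources used here do not state whether counting used strand.

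The constitutive centromere network, the inner kinetochore that stays on centromeres through the cell cycle, varied more. Of its 13 genes 9 were at least 2-fold lower, and the median log2 ratio was -1.17, with single genes from -1.69 to 0.00. CENPC, which binds CENP-A nucleosomes directly, was at 12.4 CPM with HD and 17.0 CPM with DMSO (ratio 0.728, 0.647 to 0.819). In the subcomplex of CENPH, CENPI, CENPK and CENPM, CENPK (0.309, 0.280 to 0.341), CENPM (0.317, 0.276 to 0.364) and CENPH (0.385, 0.344 to 0.430) were called and CENPI (0.554, 0.510 to 0.603) was not. CENPI therefore stood apart from its partners by more than counting error.

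In the pair of CENPL and CENPN, which also contact the CENP-A nucleosome, the ratios were 0.506 (0.431 to 0.592) and 0.446 (0.424 to 0.469), on either side of the 2-fold limit with overlapping intervals. CENPO, CENPP, CENPQ and CENPU, partners in another subcomplex, had ratios of 0.401, 0.459, 0.484 and 0.379. CENPQ was the called gene nearest the limit. CENPP and CENPO share 38.0% and 27.0% of their exon bases with IPPK and ADCY3 on the opposite strand, and those genes had ratios of 1.08 and 0.676. CENPW, the histone-fold partner of CENPT, was at 7.57 CPM with HD and 23.2 CPM with DMSO (ratio 0.326, 0.285 to 0.371). The interval of CENPW lay far below that of CENPT. CENPT shares 10.8% of its exon bases with TSNAXIP1 and 6.86% with THAP11 on the opposite strand, and these stood at 1.03 CPM with HD against 0.366 CPM with DMSO and at 23.1 CPM with HD against 40.1 CPM with DMSO.

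In the outer kinetochore, the NDC80 complex, the main microtubule-binding part, was lower in all 4 subunits, and its median log2 ratio was -1.81. NDC80 was at 21.8 CPM with HD and 74.6 CPM with DMSO (0.292, 0.271 to 0.315), and its coiled-coil partner NUF2 at 10.3 CPM with HD and 36.9 CPM with DMSO (0.278, 0.249 to 0.311). The globular subunits SPC24 and SPC25, which dock the complex on the inner kinetochore, differed from each other. SPC24 was at 2.70 CPM with HD and 13.3 CPM with DMSO (0.202, 0.163 to 0.249), and SPC25 at 14.1 CPM with HD and 41.4 CPM with DMSO (0.340, 0.309 to 0.375). Their intervals did not overlap, whereas those of NDC80 and NUF2 did. KNL1, the scaffold on which the checkpoint proteins gather, had a ratio of 0.300 (0.277 to 0.325) and its partner ZWINT one of 0.312 (0.294 to 0.330).

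The MIS12 complex, the bridge between inner and outer kinetochore, was split. DSN1 was at 20.2 CPM with HD and 58.7 CPM with DMSO, a ratio of 0.345 (0.318 to 0.374). MIS12 was at 26.8 CPM with HD and 33.7 CPM with DMSO (0.796, 0.733 to 0.863), and NSL1 at 55.9 CPM with HD and 79.4 CPM with DMSO (0.705, 0.667 to 0.744). The interval of DSN1 lay below those of the other subunits. In FPKM the 4 subunits stood between 5.18 and 11.3 in the HD library, a spread of 2.19-fold, and between 7.38 and 29.8 in the DMSO library, a spread of 4.03-fold, with DSN1 highest. PMF1 shares 23.3% of its exon bases with the read-through gene PMF1-BGLAP, which is listed with 0 counts in both libraries, and MIS12 shares 9.53% with DERL2 on the opposite strand.

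Genes of the outer corona and of microtubule attachment were all at least 2-fold lower. CENPF, a large corona protein, was at 58.8 CPM with HD and 199 CPM with DMSO (0.295, 0.282 to 0.309). SPAG5 (astrin), which stabilises attachments, was at 52.1 CPM with HD and 223 CPM with DMSO (0.233, 0.222 to 0.245). Within the SKA complex, which tracks microtubule ends, SKA3 (0.275, 0.247 to 0.305), SKA1 (0.366, 0.331 to 0.405) and SKA2 (0.440, 0.415 to 0.466) had separate intervals.

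Of 6 checkpoint genes, 5 were at least 2-fold lower. BUB1, a kinase of the checkpoint, was at 24.0 CPM with HD and 94.3 CPM with DMSO (0.254, 0.237 to 0.273). BUB1B, which encodes BUBR1 of the mitotic checkpoint complex, was at 33.3 CPM with HD and 105 CPM with DMSO (0.316, 0.297 to 0.336). MAD2L1, the MAD2 protein of the same complex, was at 32.1 CPM with HD and 105 CPM with DMSO (0.305, 0.286 to 0.325). The upstream kinase TTK (MPS1) had a ratio of 0.286 (0.263 to 0.311). BUB3, the adaptor that carries BUB1 and BUBR1 to KNL1, was at 145 CPM with HD and 214 CPM with DMSO (0.678, 0.656 to 0.701). BUB3 thus lay above both of its partners without overlap of the intervals. CDC20 lay below MAD2L1, also without overlap.

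**Figure D3:**
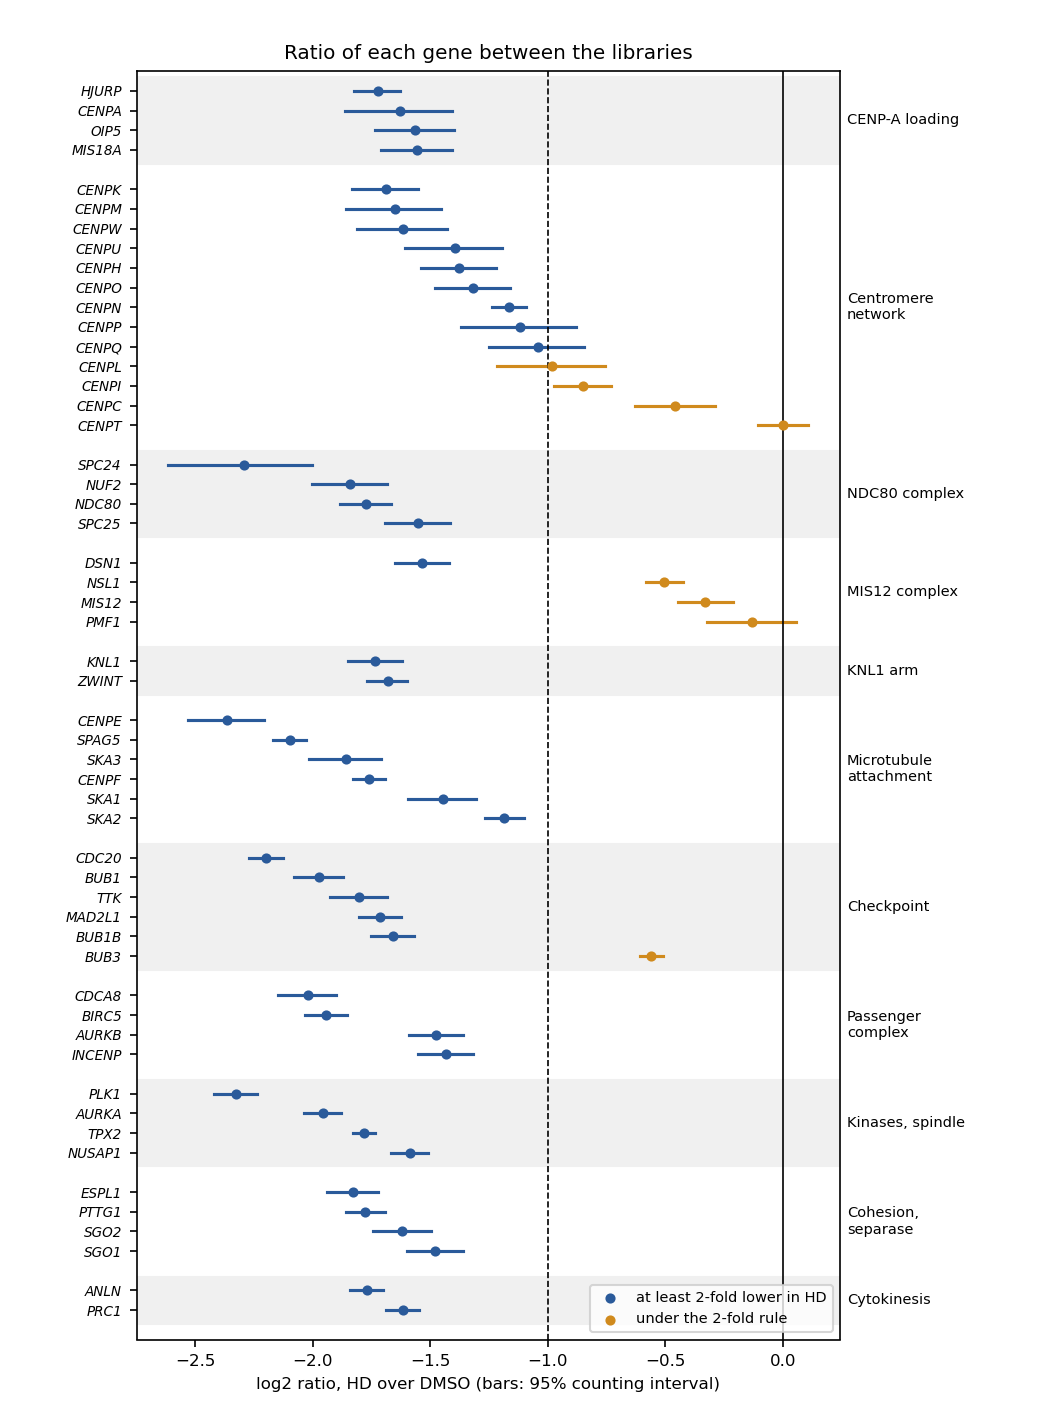
Log2 ratio of HD over DMSO for each of the 53 genes, grouped by role, with the 95% counting interval as a bar. Blue marks the 45 genes at least 2-fold lower and orange the 8 others, the solid line is no difference and the dashed line 2-fold lower; CENPT sits at 0.00 and CENPE at -2.37.

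The chromosomal passenger complex, which corrects faulty attachments and later acts at the midzone, was lower in all 4 subunits. CDCA8 (borealin) was at 16.7 CPM with HD and 67.9 CPM with DMSO (0.246, 0.226 to 0.268), and BIRC5 (survivin) at 31.3 CPM with HD and 121 CPM with DMSO. The kinase AURKB had a ratio of 0.360 (0.331 to 0.390) and the scaffold INCENP one of 0.370 (0.341 to 0.401). The targeting subunits CDCA8 and BIRC5 therefore lay lower than the scaffold, beyond counting error. AURKA, the related centrosomal kinase, was at 41.4 CPM with HD and 161 CPM with DMSO (0.257, 0.244 to 0.272), below AURKB without overlap. TPX2, which activates AURKA on the spindle, was at 109.9 CPM with HD and 378 CPM with DMSO (0.291, 0.281 to 0.301). The microtubule bundling protein NUSAP1 had a ratio of 0.333 (0.315 to 0.351).

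Genes that guard and end sister cohesion were all at least 2-fold lower. The shugoshins SGO1 and SGO2, which protect centromeric cohesin, had ratios of 0.358 (0.330 to 0.389) and 0.325 (0.299 to 0.354). PTTG1 (securin), the inhibitor of separase, was at 37.5 CPM with HD and 128 CPM with DMSO (0.292, 0.275 to 0.309). ESPL1 (separase), the protease that cuts cohesin, was at 21.7 CPM with HD and 77.2 CPM with DMSO (0.281, 0.261 to 0.303). Inhibitor and protease had overlapping intervals. Of the cytokinesis genes, PRC1, which bundles midzone microtubules, had a ratio of 0.326 (0.310 to 0.342) and ANLN (anillin), which organises the contractile ring, one of 0.293 (0.279 to 0.308). The PTTG1 copy PTTG2 had 1 count in the HD library and 0 in the DMSO library. In GENCODE, NUSAP1 and PRC1 share 62.2% and 57.6% of their exon bases with gene models on the same strand that have no symbol, and BUB1B, CENPN, CENPU, PLK1 and SGO1 share between 10.2% and 17.7% with a neighbour. Pseudogenes carry the names of 13 genes of the module, and none of these pseudogenes is a row of the count table, so the part of reads shared with them is not known.

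Per gene length, the module spanned 1.12 to 41.3 FPKM in the HD library, with a median of 7.18, and 2.79 to 142 FPKM in the DMSO library, with a median of 20.2. PTTG1 was the highest in both libraries (41.3 FPKM with HD, 142 FPKM with DMSO). CDC20, second in the DMSO library at 133 FPKM, was at 28.9 FPKM in the HD library, below TPX2 (32.9 FPKM with HD, 114 FPKM with DMSO) and BUB3 (31.9 FPKM with HD, 47.3 FPKM with DMSO). CENPT, at 19.2 FPKM in both libraries, exceeded CENPW in the HD library (6.28 FPKM) and was level with it in the DMSO library (19.4 FPKM). CENPE was the lowest with HD (1.12 FPKM) and CENPC with DMSO (2.79 FPKM).

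Other genes of the same pathway, from lists set by function with earlier results of these data known, were lower in part. Of 11 further kinetochore and centromere genes 5 were at least 2-fold lower and none 2-fold higher, with a median log2 ratio of -0.99. ITGB3BP (CENP-R) had a ratio of 0.338, the dynein adaptor SPDL1 (spindly) one of 0.350 and CENPX one of 0.353. Of 4 further checkpoint genes, TRIP13, the ATPase that remodels MAD2, was lower (0.218, 0.196 to 0.243), while MAD1L1 (0.780) and TPR (0.887) were under the 2-fold rule. Of 18 genes of the anaphase-promoting complex, which CDC20 activates, and its partners, 4 were at least 2-fold lower and none higher, with a median of -0.39. Among the 14 subunits themselves 1 was called, ANAPC15 (0.449). This share, 7.14%, was near the 5.10% called lower among all genes past the filter. The inhibitor FBXO5 (EMI1) had a ratio of 0.486. The ubiquitin-conjugating partners of the complex, UBE2C (25.6 CPM with HD, 109.8 CPM with DMSO) and UBE2S (112 CPM with HD and 237 CPM with DMSO), had ratios of 0.233 and 0.472.

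All 7 genes of centralspindlin and cytokinesis were at least 2-fold lower, with a median of -1.79, among them KIF20A (0.220), KIF4A (0.269) and CEP55 (0.281). Of 16 genes of spindle assembly and augmin 7 were lower, with a median of -0.75, where ASPM (0.251), TACC3 (0.264) and HMMR (0.339) led. Of 10 subunits of the PP1 and PP2A phosphatases that oppose mitotic kinases none was 2-fold lower and PPP2R5B was 2-fold higher (2.06, 1.86 to 2.28). Among all genes past the filter, 5.10% were called lower and 5.81% higher. PPP2R5D and PPP1CC had ratios of 0.706 and 0.725.

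The module was also set beside other cell-cycle lists. Of 19 condensin and cohesin genes 9 were at least 2-fold lower (median log2 ratio -0.72), led by NCAPG (0.219), ESCO2 (0.298) and NCAPH (0.298). Among all genes past the filter 5.10% were called lower. The condensin subunits SMC2, SMC4, NCAPD2, NCAPG, NCAPH, NCAPD3 and NCAPG2 were among the 9, and NCAPH2 (0.607) was not. The cohesin subunits SMC1A (0.613), SMC3 (0.758), RAD21 (0.611), STAG1 (0.780) and STAG2 (0.853) were not called. The cohesin regulators ESCO2 and CDCA5 were called, and PDS5A, PDS5B, WAPL and NIPBL were not. Of 25 genes of replication licensing and the fork 20 were lower (median -1.30), with GINS2 (0.261), GINS1 (0.272) and CDC45 (0.278) lowest. With 1 library a group, the difference between these medians and the -1.62 of the module was not tested. Of 19 regulators of cell-cycle transcription 7 were lower and none was 2-fold higher (median -0.45). FOXM1 was at 32.0 CPM with HD and 91.6 CPM with DMSO (0.349, 0.327 to 0.372), and MYBL2 at 60.6 CPM with HD and 172 CPM with DMSO (0.352, 0.336 to 0.369). LIN54, the DREAM subunit that contacts the CHR, was at 32.0 CPM with HD and 38.7 CPM with DMSO (0.827, 0.767 to 0.891). Among its partners in DREAM, LIN9 (0.342) was called lower, while LIN52 (0.732), RBBP4 (0.816) and LIN37 (1.39) were under the 2-fold rule. E2F8 (0.226), RBL1 (0.275) and E2F7 (0.301) had the lowest ratios of that list.

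**Figure D4:**
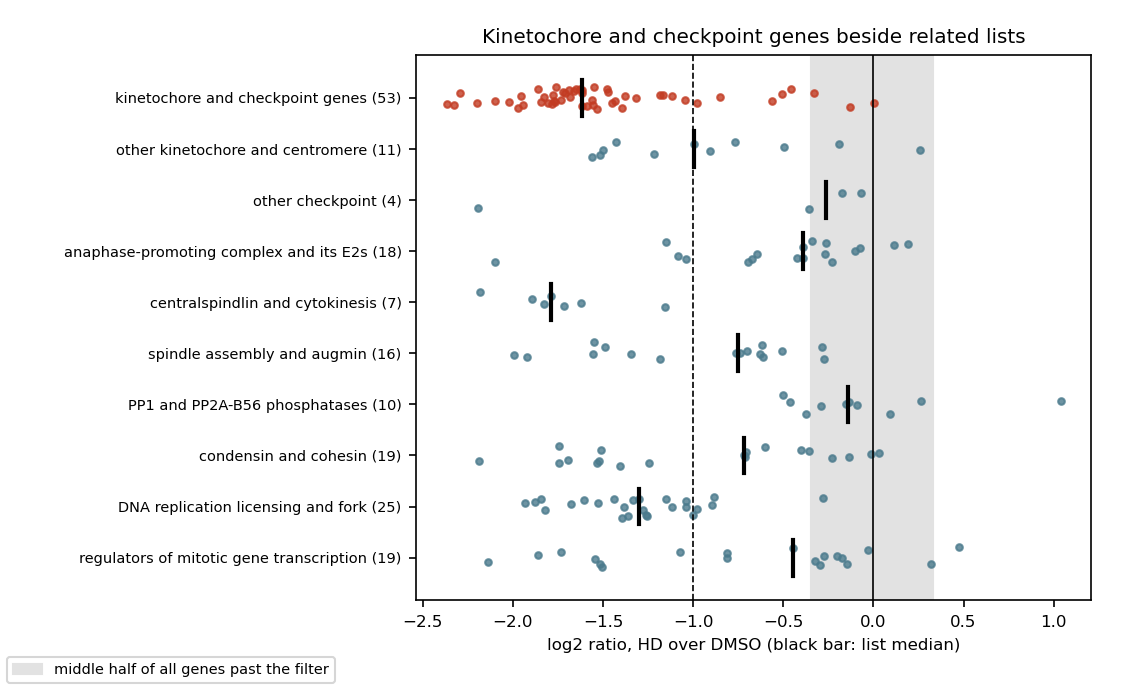
Log2 ratio of HD over DMSO for the 53 genes (red) and for 9 related lists (blue), 1 point a gene, with the list median as a black bar and the number of genes past the filter in brackets. The grey band runs from the lower to the upper quartile of all genes past the filter (-0.35 to 0.33), and the median of the module, -1.62, lies left of it.

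Markers of the labelled cell type were abundant in both libraries. The 10 hepatocyte and hepatoma markers summed to 22658 CPM with HD and 24372 CPM with DMSO and none passed 2-fold, with AFP at 0.725, SERPINA1 at 1.34 and APOB at 1.44. The 6 leukocyte markers summed to 19.6 CPM with HD and 18.0 CPM with DMSO, most of it CD68 (17.0 CPM with HD and 13.9 CPM with DMSO) and CD14 (2.38 CPM with HD and 3.82 CPM with DMSO), with MS4A1 at 0 counts in both libraries and CD3E at 2 counts in each. The 7 fibroblast and endothelial markers summed to 16.5 CPM with HD and 22.6 CPM with DMSO, with PECAM1 (0.482) lower and PDGFRB (1.51) and COL1A1 (1.06) under the 2-fold rule. Their part in the values of the module was not tested.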

How the data were processed

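Poly(A)-selected mRNA of Huh7 cells was sequenced in 2 libraries, 1 per group. The authors deposited raw counts per gene symbol for both libraries, tied to the samples by the labels, and FPKM per library. The genome build was hg38, per the submitters' processing notes. For the aligner, the counter, the annotation and the strand setting, nothing is stated in the sources used here. FPKM ratios differed from count ratios scaled to totals by at most 3.13e-05% in 14778 genes, so they hold the same measurement. Here, TMM factors (edgeR 4.0.16, R 4.3.3) scaled the counts, and Python 3.11.15 (scipy 1.17.1, numpy 2.4.6) gave ratios and intervals. Size factors of DESeq2 1.42.0 were an alternative. The rule of size was tested on simulated data that carried counting error only. That test cannot show how the rule fares when cultures vary. The module, the lists and the motifs were chosen with earlier results of these data known. The genes named from each list are the 3 with the largest absolute log2 ratio, with FOXM1, MYBL2 and LIN54 whatever their values. IPPK, ADCY3, TSNAXIP1, THAP11, PTTG2, FBXO5, CD3E and MS4A1 were added after their values were seen. So were LIN9, LIN37, LIN52, RBBP4 and the condensin and cohesin genes beyond those 3. The promoters printed are the 2 lowest and 2 highest ratios of genes that averaged 5 CPM or more and had an entry, with PLK1 and CDC20. Exon overlaps come from GENCODE on GRCh38, and promoters from RefSeq. The 100-base limit upstream of the start was set after the matches were seen. Nothing shows how cultures vary, so intervals cover counting error only, and PCR copies are not independent molecules. Alternatives were other scalings, filters, a prior count of 5, FPKM ratios and a 1.5-fold rule.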

Additional observations from a re-analysis of the deposited data

How the results depend on the processing

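Scaling by library totals, DESeq2 size factors, no filter, a filter at 5 CPM, a prior count of 5 and the ratio of deposited FPKM each left 45 of the 53 genes at least 2-fold lower and none 2-fold higher. The filters could not alter this count, because every gene of the module averaged at least 8.02 CPM. FPKM ratios repeat the scaling by library totals and are not a separate check. A 1.5-fold rule called 47 lower, where 14.1% of all genes were called lower. The median log2 ratio ran from -1.63 to -1.61. The ratio of each gene stayed inside its counting interval under every scaling, the prior count of 5 and FPKM, with a largest shift of 0.04 on the log2 scale. CENPT, at 0.00, changed sign within its interval under library totals and FPKM. No paired analysis was possible because each group has 1 library. Leaving out a replicate was not possible for the same reason. Depth limits the ratio of SPC24 most, at 110 counts in the HD library, with an interval 1.24-fold to either side.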
